A study of Mus musculus with 6 samples.

Results

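Ret, Nf1, Vhl, Tmem127, Max, Fh1, Epas1, Egln1, Mdh2 and Kif1b are mouse counterparts of genes whose inherited or somatic mutation predisposes people to pheochromocytoma, the tumour of chromaffin cells. Their expression was followed in adrenal medulla microdissected from male C57/Bl6 mice, 8 weeks after surgery. The surgery was either transverse aortic constriction (TAC), in which a band around the aortic arch raises the load on the left ventricle, or a sham procedure. Each group held 3 mice, and each of the 6 Affymetrix arrays carried RNA of both medullae of 1 mouse, so replicates are separate animals. No genetic change was introduced in either group, the labels name no tumour, and the age of the mice is not given in the sources used here. Members were taken as every probe set (a group of short probes that reads 1 transcript) whose single gene symbol was 1 of the 10 genes. This gave 24 of the 45037 probe sets on the array that are not controls, for 10 of the 18193 genes that have a symbol of their own.

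The genes act in a few connected pathways. Vhl and Egln1 mark and remove the alpha subunits of hypoxia-inducible factor (HIF), of which Epas1 encodes one that is prominent in chromaffin and endothelial cells, and the mitochondrial enzymes Fh1 and Mdh2 handle metabolites of the citric acid cycle that bear on the same oxygen-sensing enzymes. Ret, Nf1, Tmem127 and Max belong to growth signalling, through receptor tyrosine kinase, RAS, mTOR and MYC. Kif1b encodes a motor protein that carries cargo along microtubules and, in one isoform, takes part in the developmental death of sympathoadrenal precursors.

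None of the 8 susceptibility genes with a tested probe set differed between TAC and sham past the threshold. Nf1 and Max had no tested probe set. Of the 24 probe sets, 13 reached log2 4 on at least 3 of the 6 arrays and were tested, and 0 of these had an adjusted p under 0.05 in limma, as was so for 0% of all 18188 probe sets tested. At an unadjusted p under 0.05 there was 1 member probe set, 7.69% of the 13, beside 6.94% of all probe sets tested (4.65% with the higher and 2.29% with the lower mean after TAC), so the count was near the background. The same probe set, 1 of the 7 of Kif1b, was also the only one of the 13 in which the groups did not overlap, as was so for 13.0% of all tested probe sets (9.01% higher and 4.01% lower after TAC). It was lower after TAC. The mean after TAC was higher in 5 of the 13 and lower in 8, while 54.7% of all tested probe sets had the higher mean after TAC. With the brightest tested probe set standing for each gene, 3 of 8 genes had a higher and 5 a lower mean after TAC, with a median difference of -0.10 on the log2 scale, against 58.7% higher and a median of 0.09 over all 10181 genes tested. This median was not settled in sign: it was 0.34 without TAC 1, 0.17 without sham 2, 0.19 without sham 3, 0.06 without TAC 1 and sham 1 together and 0.21 with RNA shortening (the Gapdh gap described below) as a covariate, but -0.36 without TAC 2 and -0.30 without sham 1. These differences ran from -0.35 for Ret to 0.31 for Mdh2. The number of arrays limits the precision, and the median standard error was 0.45 for the 13 member probe sets and 0.39 for all tested ones.

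**Figure D1:**
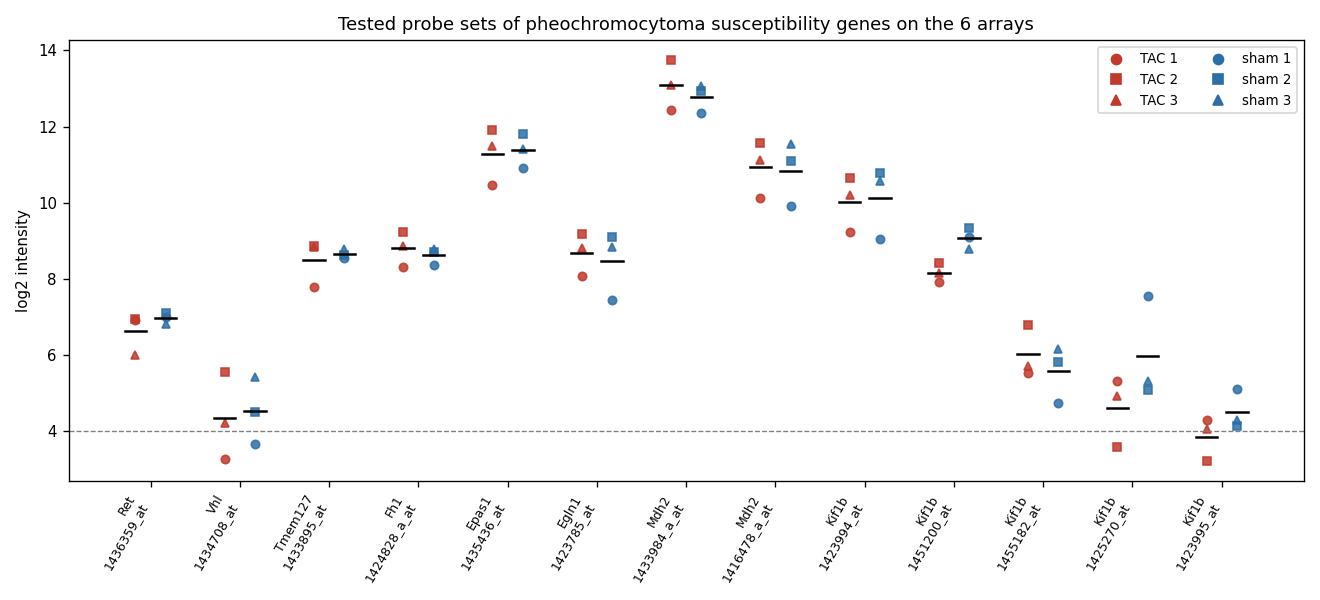
Log2 intensity (vertical axis) of the 13 tested probe sets on each array, TAC in red left of sham in blue, with a marker shape per replicate number and a black bar at each group mean. The dashed line is the log2 4 filter, and the groups overlap in all probe sets but Kif1b 1451200_at.

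The tissue and RNA were checked first. All 11 chromaffin marker genes measured were above the filter, and their mean log2 level lay between 12.23 and 13.13 in the TAC arrays and between 12.39 and 13.05 in the sham arrays. Adrenal cortex markers were present on every array as well, with 7 of 10 above the filter and a mean from 6.77 to 9.65 after TAC and from 6.81 to 10.94 after sham. Sham 3 stood apart, with 10.94 against 7.87 in sham 1 and 6.81 in sham 2. Cyp11b2 and Nr5a1 stayed below log2 4 on all arrays, and Mc2r, the corticotropin receptor gene, reached 7.75 in sham 3 and stayed below log2 4 on the other 5. For endothelial cells, which also express Epas1, 6 of 10 markers were tested, with a mean from 5.30 to 6.20 after TAC and from 5.44 to 6.34 after sham, and the defining markers Pecam1, Cdh5, Kdr and Tie1 were below the filter. Sustentacular and Schwann cell markers, 6 of 7 tested, had a mean from 6.77 to 8.01 after TAC and from 6.65 to 7.43 after sham. Of these, 4 had a higher and 2 a lower mean after TAC. Only Sox10 had an unadjusted p under 0.05, at 0.77 ± 0.24 without overlap (limma adjusted p = 0.560). Macrophage markers, 7 of 9 tested, had a mean from 6.15 to 7.58 after TAC and from 5.89 to 7.35 after sham. Here 2 had a higher and 5 a lower mean after TAC. Only Csf1r had an unadjusted p under 0.05, at 1.01 ± 0.25 without overlap (limma adjusted p = 0.475). Its second probe set read 1.13 ± 0.85. The groups did not overlap for Cx3cr1 either, which was lower after TAC at -0.36 ± 0.23. Fibroblast markers, 7 of 8 tested, had a mean from 6.12 to 7.41 after TAC and from 7.05 to 8.51 after sham. Of these 7, 6 had a lower mean after TAC (median difference -1.40, between -0.99 and -1.60 leaving out 1 array), with 0 past the threshold. In 3 the groups did not overlap, as was so for 14.2% of all genes tested in either direction. At an unadjusted p under 0.05 there were 4, all lower after TAC, where 7.29% of all genes tested reached it in either direction. They were the collagen genes Col1a2 (-1.40 ± 0.43) and Col3a1 (-1.67 ± 0.48) and the matrix genes Dcn (-2.38 ± 0.94) and Dpt (-1.11 ± 0.31). For Dcn the groups overlapped. Second probe sets differed less, with -0.89 for Col1a2 and -0.49 ± 0.31 for Col3a1. The part of this fibroblast marker difference in the members' values was not tested. In such bulk tissue, fewer cells of a type and less RNA per cell cannot be told apart. The array carries control probe sets near both ends of Gapdh, and their log2 gap (3′ minus 5′), larger where transcripts are shortened, was 4.71, 3.67 and 3.98 in TAC 1 to 3 and 5.15, 3.08 and 2.88 in sham 1 to 3. The groups did not separate on it (difference 0.42, exact 2-sided permutation p = 0.6, with 0.1 the smallest that 3 against 3 arrays allow). TAC 1 and sham 1 thus had the largest difference of their groups, and 9 of the 13 member probe sets were lowest of their group in both of these arrays, against 44.1% of all tested probe sets.

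In the oxygen-sensing arm, Epas1 was read strongly and alike in both groups. Epas1, which encodes HIF-2alpha, measured log2 10.46, 11.91 and 11.49 in the TAC arrays and 10.91, 11.81 and 11.40 in the sham arrays. The groups overlapped, with TAC 1 and sham 1 the low array of each. The difference of TAC minus sham was -0.09 ± 0.45 (SE, 95% interval -1.20 to 1.01, limma adjusted p = 0.998), and the interval spans a fold of TAC over sham from 0.436 to 2.02. Its second probe set, 1449888_at, stayed between 2.89 and 2.96 on all arrays and was not tested.

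Egln1 encodes PHD2, the main prolyl hydroxylase that tags HIF alpha subunits for recognition by the Vhl protein. It measured 8.07, 9.19 and 8.81 after TAC and 7.46, 9.10 and 8.84 after sham. Sham 1 was the lowest of the 6 arrays, TAC 1 the next, and the other 4 lay within a narrow band. The difference was 0.22 ± 0.53 (95% interval -1.06 to 1.51, adjusted p = 0.990), and it was -0.28 without sham 1 and -0.03 without TAC 2. A second Egln1 probe set, designed from the same sequence record, was read at 3.16 to 3.27 on all arrays and was not tested.

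Vhl, the substrate-recognition subunit of the ubiquitin ligase that removes hydroxylated HIF alpha, was read near the filter. Its tested probe set 1434708_at measured 3.28, 5.56 and 4.22 after TAC and 3.66, 4.51 and 5.44 after sham, a wide spread within both groups. TAC 1 and sham 1 were again lowest and fell below log2 4. The difference was -0.18 ± 0.70 (95% interval -1.89 to 1.53, adjusted p = 0.997). The other Vhl probe set, 1421071_at, lay between 2.37 and 2.46. With the Gapdh gap as a covariate the difference was 0.17 for Vhl, 0.11 for Epas1 and 0.53 for Egln1 (adjusted p = 0.868, 0.889 and 0.230), and without TAC 1 it was 0.36 for Vhl and 0.32 for Epas1. Without sham 3 the Vhl difference was 0.27, and without sham 2 that of Epas1 was 0.13.

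HIF binds DNA at a short core sequence, of which ACGTG is a form, and Max and its partners bind the E-box CACGTG, which contains that form on both strands. Other forms of the HIF core were not searched for, so they are neither counted nor marked here. Promoter windows of 300 bases, from 250 before to 50 after an annotated start, were found for 8 of the 10 genes in RefSeq (GRCm38.p6) and searched on both strands for these letters. Of the 9 windows, 3 held ACGTG and 1 held CACGTG, against 19.6% and 7.15% of all 32851 windows of this length. These 3 windows are shown because they hold the letters that the Epas1 and Max proteins are known to bind, with the match in capitals and the rest in lower case. They belong to Egln1 (chr8:124949205-124949504, minus strand), Tmem127 (chr2:127247698-127247997, plus strand) and Max (chr12:76962199-76962498, minus strand), read 5′ to 3′ along the gene. A match of letters is a description and not evidence of binding.
Egln1: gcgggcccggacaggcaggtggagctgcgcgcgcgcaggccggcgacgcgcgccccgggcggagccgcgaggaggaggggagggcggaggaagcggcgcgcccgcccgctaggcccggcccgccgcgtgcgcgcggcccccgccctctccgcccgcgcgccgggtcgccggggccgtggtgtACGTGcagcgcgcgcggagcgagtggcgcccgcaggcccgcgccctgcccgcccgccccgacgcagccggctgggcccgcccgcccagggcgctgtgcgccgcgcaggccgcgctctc
Tmem127: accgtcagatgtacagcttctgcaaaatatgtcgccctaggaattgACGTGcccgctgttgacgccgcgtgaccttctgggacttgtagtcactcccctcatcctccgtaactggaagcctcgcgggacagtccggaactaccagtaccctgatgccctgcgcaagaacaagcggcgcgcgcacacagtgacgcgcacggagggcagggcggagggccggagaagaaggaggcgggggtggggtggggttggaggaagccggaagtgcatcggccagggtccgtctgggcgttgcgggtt
Max: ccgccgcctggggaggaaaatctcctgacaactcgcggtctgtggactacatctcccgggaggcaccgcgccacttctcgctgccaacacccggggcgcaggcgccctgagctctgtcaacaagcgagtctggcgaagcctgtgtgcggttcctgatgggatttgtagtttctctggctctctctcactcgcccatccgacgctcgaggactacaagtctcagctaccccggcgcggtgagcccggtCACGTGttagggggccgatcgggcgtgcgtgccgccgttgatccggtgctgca
The match begins 68 bases before the start of Egln1, 204 before that of Tmem127 and 3 before that of Max.

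None of the other genes of HIF regulation passed the test. Of 12 tested, 9 had a higher and 3 a lower mean after TAC, with a median difference of 0.21 and 0 past the threshold. At an unadjusted p under 0.05 there was 1, where 7.29% of all genes tested reached it and 14.2% had groups without overlap. That gene was Elob, which encodes elongin B, a subunit of the Vhl ubiquitin ligase, and it measured 11.30, 11.14 and 11.21 after TAC and 10.50, 10.33 and 10.64 after sham. All 3 TAC arrays lay above all sham arrays, and the difference of 0.73 ± 0.22 had an adjusted p of 0.554. A second Elob probe set differed by 0.59 ± 0.46. Hif1a, the alpha subunit that responds to oxygen in most cells, differed by 0.01 ± 0.50 on its brightest probe set. This difference ran from -0.42 to 0.32 over 16 alternatives, with the opposite sign in 6. Its second probe set read 0.34 ± 0.46. Arnt, the beta subunit, differed by 0.49 ± 0.37 on its brightest probe set, with 0.09 to 0.72 over the alternatives, and by -0.46 and -0.10 on its other probe sets. Egln2, a second prolyl hydroxylase, differed by 0.49 ± 0.32 (adjusted p = 0.903), while Egln3, the third, lay below log2 2.6 on all arrays and was not tested. Leaving out TAC 2 gave a median of -0.12 for these genes, leaving out sham 1 gave -0.04, and leaving out sham 2 gave 0.39. Median centring of the arrays, quantile normalization and cyclic loess gave medians of 0.18, 0.16 and 0.12. Each gave 7 genes with a higher and 5 with a lower mean, and 0 at an unadjusted p under 0.05.

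Among genes that HIF is known to induce, 14 of 19 tested had a higher and 5 a lower mean after TAC (median 0.11), with 0 past the threshold and 1 at an unadjusted p under 0.05. Over all genes tested, 58.7% had the higher mean after TAC, 7.29% reached that p and 14.2% had groups without overlap. In this list the groups did not overlap for 3 of the 19, Adm, Pdk1 and Hk2, each higher after TAC. Adm, which encodes the vasodilator peptide adrenomedullin, and Pdk1, a kinase that restrains pyruvate entry into mitochondria, had the smallest p-values of the list, that of Adm being the one under 0.05. Adm measured 12.00, 12.28 and 12.52 after TAC and 11.53, 11.75 and 11.49 after sham, without overlap (difference 0.68 ± 0.24, adjusted p = 0.658), yet a second Adm probe set read -0.85 ± 0.65. Pdk1 differed by 0.54 ± 0.23 (adjusted p = 0.730), and its other probe sets by 0.51 and -0.11. The target Mxi1 differed by -0.69 ± 0.53. Leaving out 1 array, the list median ran from -0.03 without sham 1 and -0.02 without TAC 2 to 0.31 without TAC 1, 0.30 without sham 2, 0.26 without TAC 3 and 0.23 without sham 3. It was 0.09 after median centring of the arrays, 0.07 after quantile normalization and 0.01 after cyclic loess. Differences of both signs thus stood within this list and within single genes.

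Of the mitochondrial members, Mdh2 was read by a pair of tested probe sets and Fh1 by 1. Mdh2 encodes the malate dehydrogenase of the citric acid cycle. Its brighter probe set 1433984_a_at measured 12.45, 13.74 and 13.10 after TAC and 12.36, 12.92 and 13.07 after sham, where TAC 2 stood above the rest. The difference was 0.31 ± 0.40 (95% interval -0.66 to 1.29, adjusted p = 0.980), and it was -0.0083 without TAC 2. Its other probe set 1416478_a_at measured 10.13, 11.56 and 11.12 after TAC and 9.92, 11.09 and 11.53 after sham, a difference of 0.09 ± 0.55 (adjusted p = 0.998) that was -0.22 without TAC 2 and -0.37 without sham 1. Both probe sets were lowest of each group in TAC 1 and sham 1. Fh1, which encodes fumarate hydratase, measured 8.31, 9.24 and 8.86 after TAC and 8.37, 8.70 and 8.80 after sham. The sham arrays lay inside the range of the TAC arrays, and the difference was 0.18 ± 0.31 (95% interval -0.58 to 0.94, adjusted p = 0.985), or -0.038 without TAC 2.

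The other citric acid cycle and malate shuttle genes, with the Sdh genes left aside, were all above the filter. Of these 15, 7 had a higher and 8 a lower mean after TAC (median -0.03), with 0 past the threshold and 0 at an unadjusted p under 0.05. Single arrays moved this median widely. It was 0.22 without TAC 1, 0.13 without sham 2 and 0.09 without sham 3, but -0.45 without TAC 2 (3 higher, 12 lower), -0.15 without TAC 3 and -0.63 without sham 1 (2 higher, 13 lower). Cs, the citrate synthase gene, differed by 0.25 ± 0.22 on its brightest probe set and by -0.28 and -0.68 on the others. Suclg2, a subunit of succinyl-CoA ligase, differed by -0.38 ± 0.32. The shuttle genes Got2 (0.29 ± 0.50) and Slc25a11 (0.06 ± 0.93) have themselves been linked to paraganglioma. A second Got2 probe set read -0.41 ± 0.62. Slc25a11 ranged from 5.36 to 7.76 over the TAC arrays and from 4.86 to 7.59 over the sham arrays, lowest in TAC 1 and sham 1, and its difference ran from -0.82 to 0.72 over 16 alternatives.

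Among the growth signalling members, Ret was detected by 1 of its probe sets. Ret encodes the receptor tyrosine kinase for ligands of the glial cell line-derived neurotrophic factor (GDNF) family. Probe set 1436359_at measured 6.93, 6.96 and 6.01 after TAC and 6.99, 7.11 and 6.83 after sham. TAC 3 stood apart below the other 5 arrays, which lay between 6.83 and 7.11. The difference was -0.35 ± 0.33 (95% interval -1.15 to 0.45, adjusted p = 0.963), and without TAC 3 it was -0.03. Unlike the other members described above, Ret was not lowest in TAC 1 or sham 1. Its other probe set, 1421359_at, lay between 2.46 and 2.55 and was not tested.

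Genes around Ret were often too low to test. Of 17 ligand, co-receptor and adaptor genes, 7 were tested, 3 with a higher and 4 with a lower mean after TAC (median -0.08), with 0 past the threshold and 0 at an unadjusted p under 0.05. Leaving out TAC 1 turned it to 0.28, sham 2 to 0.20 and sham 3 to 0.09, while leaving out TAC 2 gave -0.31, sham 1 -0.26 (each 1 higher, 6 lower) and TAC 3 -0.21. The ligand genes Gdnf, Nrtn, Artn and Pspn and the co-receptor genes Gfra3 and Gfra4 did not pass the filter. Gfra1, the co-receptor that binds GDNF, measured 3.22, 4.10 and 3.90 after TAC and 3.52, 5.88 and 5.41 after sham, so 4 of its 6 values were close to or below log2 4. Its difference of -1.20 ± 0.65 (adjusted p = 0.839) is therefore unsure in size. Gfra2, the co-receptor for neurturin, measured 10.19, 11.10 and 10.35 after TAC and 9.27, 10.39 and 10.68 after sham (difference 0.43 ± 0.46, adjusted p = 0.979), and its difference ran from 0.0086 to 0.71 over 16 alternatives. Its second tested probe set, which carries an x suffix for cross-hybridising probes as the first does, read 1.02 ± 0.31 (adjusted p = 0.560).

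Nf1 encodes neurofibromin, which switches RAS off, and none of its 3 probe sets passed the filter. The brightest, 1438067_at, measured 3.27, 3.25 and 3.26 after TAC and 3.16, 3.42 and 3.59 after sham. Probe set 1441523_at lay between 2.60 and 3.50, highest in sham 1, and 1452525_a_at between 2.40 and 2.52. A value below the filter here does not show that the gene is silent, since these values are close to the background of the array.

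In the RAS and MAP kinase list, 10 of 16 tested genes had a higher and 6 a lower mean after TAC (median 0.30), with 0 past the threshold. At an unadjusted p under 0.05 there were 2, Spred2 and Spry2, where 7.29% of all genes tested reached it and 14.2% had groups without overlap. Spred2, a RAS-RAF inhibitor, measured 7.56, 7.79 and 7.41 after TAC and 6.28, 5.85 and 6.82 after sham, without overlap (difference 1.27 ± 0.31, adjusted p = 0.475). Spry2, a feedback inhibitor induced by receptor signalling, measured 6.94, 7.83 and 6.81 after TAC and 6.01, 6.21 and 6.13 after sham, also without overlap (difference 1.08 ± 0.33, adjusted p = 0.560). The second Spred2 probe set read 0.52 ± 1.02. Other genes of the list that encode inhibitors of the pathway ran both ways. Spry1 was at 1.11 ± 0.82, Rasa1 at 0.72 ± 0.42, Rasa2 at 0.47 ± 0.37 and Spred1 at 0.01 ± 0.27. Spry4 was at -0.08 ± 0.32 and Dusp6 at -0.68 ± 1.16. The other Rasa1 probe set read -1.97 and that of Rasa2 0.36, while those of Spred1 read -0.62 and 0.46. Leaving out TAC 1 gave a list median of 0.58, sham 2 gave 0.50, TAC 2 gave 0.14 and sham 1 gave 0.09. With the Gapdh gap as a covariate 14 of the 16 genes had a higher mean after TAC and 8 an unadjusted p under 0.05. Over all 18188 probe sets tested, that covariate gave 3843 at this p in place of 1263. Their median difference was 0.13 with it and 0.05 without it. Over 16 alternatives the differences stayed between 1.04 and 1.52 for Spred2 and between 0.76 and 1.27 for Spry2.

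Tmem127 encodes a membrane protein of the endosome and lysosome that restrains mTOR complex 1. Probe set 1433895_at measured 7.80, 8.87 and 8.85 after TAC and 8.54, 8.62 and 8.78 after sham. TAC 1 was low, and the other 5 arrays lay between 8.54 and 8.87. The difference was -0.14 ± 0.35 (95% interval -1.001 to 0.72, adjusted p = 0.990), and it was 0.21 without TAC 1. The second Tmem127 probe set, from the same sequence record, lay between 1.93 and 2.02. Among genes of mTOR complex 1 and its inputs, 7 of 13 tested had a higher and 6 a lower mean after TAC, with a median of 0.00, 0 past the threshold and 0 at an unadjusted p under 0.05. The median was -0.03 to -0.09 under 3 other scalings and 0.16 with the Gapdh covariate. Leaving out 1 array gave 0.21 (TAC 1), -0.13 (TAC 2), -0.12 (TAC 3), -0.11 (sham 1) and 0.10 (sham 2 and sham 3). Mtor, the kinase itself, differed by 0.27 ± 0.27. Lamtor1, which anchors the complex to the lysosome, differed by 0.63 ± 0.31, and Rraga, a GTPase that recruits it there, by -0.97 ± 0.52 (adjusted p = 0.833).

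Max encodes the partner with which MYC and its antagonists bind DNA. Its only probe set, 1423501_at, measured 3.80, 3.61 and 3.69 after TAC and 3.84, 3.76 and 3.90 after sham, all below the filter, and it was not tested. Of 9 tested genes of its network, 5 had a higher and 4 a lower mean after TAC (median 0.32, and 0.17 without sham 3). Over all genes tested, 58.7% had the higher mean, 7.29% an unadjusted p under 0.05 and 14.2% groups without overlap. In the network 0 passed the threshold. The groups did not overlap for 3 of the 9, Mxd4, Mnt and Mga, each higher after TAC. An unadjusted p under 0.05 was reached by 1. That gene was Mxd4, which encodes a Max partner that opposes MYC. It measured 10.89, 10.99 and 11.38 after TAC and 10.04, 10.29 and 10.47 after sham, without overlap (difference 0.82 ± 0.25, adjusted p = 0.563), while its other probe sets read 0.03 and 0.02. Mga, another Max partner, differed by 0.59 ± 0.27 and, on a second probe set, by -0.60 ± 0.28. Mycn, the MYC gene of neural crest derivatives, was well above the filter at 9.65, 11.16 and 9.06 after TAC and 9.02, 10.22 and 7.94 after sham (difference 0.90 ± 0.76, adjusted p = 0.946), with 0.30 to 1.48 over 16 alternatives. Myc itself measured 4.60, 4.63 and 4.59 after TAC and 4.60, 5.33 and 5.49 after sham (difference -0.53 ± 0.30).

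Kif1b was read by 7 probe sets, of which 5 were tested, and these did not run in parallel. Probe set 1451200_at carried the smallest p-value of all members. It measured 7.92, 8.43 and 8.16 after TAC and 9.10, 9.34 and 8.78 after sham. Every TAC array lay below every sham array, and the group means were 8.17 ± 0.26 after TAC and 9.07 ± 0.28 after sham (SD, n = 3 each). The difference was -0.90 ± 0.27 (95% interval -1.55 to -0.26), a fold of TAC over sham of 0.534, with an unadjusted p of 0.0141 and a limma adjusted p of 0.553. It did not pass the threshold.

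The brightest Kif1b probe set, 1423994_at, is annotated from the same sequence record as 1451200_at and 1423995_at. It measured 9.25, 10.64 and 10.21 after TAC and 9.06, 10.78 and 10.57 after sham, a difference of -0.10 ± 0.58 (95% interval -1.53 to 1.32, adjusted p = 0.998) that was 0.29 without TAC 1, 0.22 without sham 2 and 0.11 without sham 3. Probe set 1455182_at measured 5.54, 6.80 and 5.72 after TAC and 4.74, 5.81 and 6.17 after sham, a difference of 0.45 ± 0.51 (adjusted p = 0.980) that was 0.03 without sham 1, 0.06 without TAC 2, 0.69 without TAC 1 and 0.75 without sham 3. Both were lowest of their group in TAC 1 and sham 1, the arrays with the largest 3′ to 5′ difference and the lowest median over all tested probe sets.

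The remaining pair ran the other way across the arrays. Probe set 1425270_at measured 5.32, 3.58 and 4.93 after TAC and 7.55, 5.09 and 5.32 after sham, highest of each group in TAC 1 and sham 1 (difference -1.38 ± 0.79, 95% interval -3.29 to 0.54, adjusted p = 0.870). Sham 1 alone lay far above the other 5 arrays, and without it the difference was -0.60. Probe set 1423995_at measured 4.29, 3.22 and 4.05 after TAC and 5.12, 4.15 and 4.30 after sham (difference -0.67 ± 0.41, adjusted p = 0.886), with the same arrays highest. Its difference was -0.35 without TAC 2 and -0.37 without sham 1. Of the untested probe sets, 1451642_at lay between 2.98 and 3.85, highest in sham 1 and TAC 1, and 1451762_a_at between 2.39 and 2.82, highest in TAC 2. The 3′ to 5′ difference thus moved with the Kif1b values in opposite directions for different probe sets. With it as a covariate the difference was -0.89 for 1451200_at (adjusted p = 0.135), -1.85 for 1425270_at (adjusted p = 0.0759), -0.87 for 1423995_at, 0.72 for 1455182_at and 0.24 for 1423994_at.

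**Figure D2:**
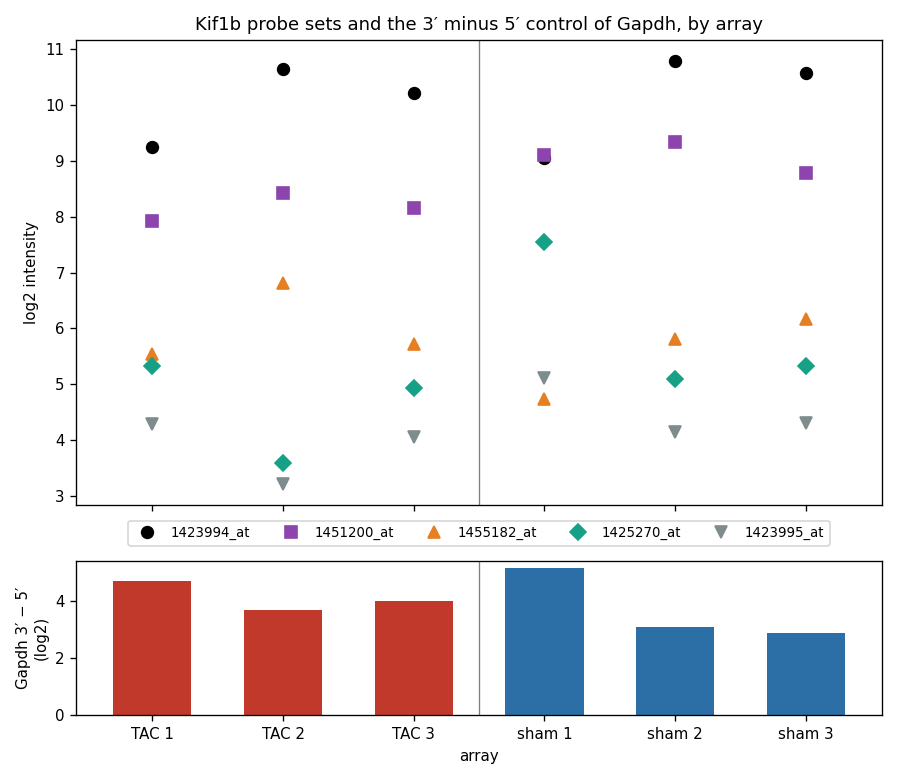
Upper axis, log2 intensity of the 5 tested Kif1b probe sets on each array; lower axis, log2 gap of the Gapdh control probe sets (3′ minus 5′), with TAC arrays left of sham arrays. Probe set 1423994_at is lowest of its group in TAC 1 and sham 1, where the Gapdh difference is 4.71 and 5.15, and 1425270_at is highest there.

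Whether 1451200_at differed from the other Kif1b probe sets in its response was tested within arrays, after the values were seen. It was taken as the reference because its p for TAC against sham was the smallest of the tested Kif1b probe sets. The exact p-values do not allow for that choice. The log2 gap of 1451200_at over 1455182_at was 2.37, 1.62 and 2.44 after TAC and 4.35, 3.52 and 2.61 after sham, smaller on every TAC array than on every sham array (exact 2-sided permutation p = 0.1, the smallest possible, and 0.4 adjusted over 4 comparisons). Against 1423994_at the gap was -1.33, -2.21 and -2.04 after TAC and 0.04, -1.44 and -1.79 after sham (exact p = 0.3). For 1425270_at and 1423995_at the exact p was 0.7 and 0.8. With 3 arrays against 3, none of these could pass 0.05.

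**Figure D3:**
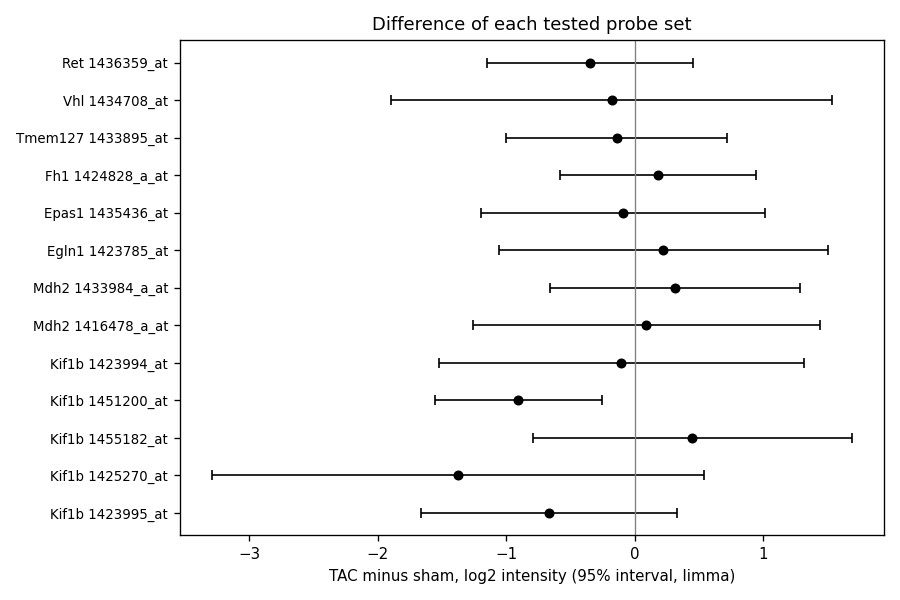
Difference of TAC minus sham in log2 intensity (horizontal axis) for each of the 13 tested probe sets, with the 95% interval of the limma fit as bars. Only the interval of Kif1b 1451200_at, -1.55 to -0.26, leaves out 0, before any adjustment for multiple testing.

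Other genes of the kinesin-3 family and partners of Kif1b showed no call. Of 7 tested, 2 had a higher and 5 a lower mean after TAC (median -0.12), with 0 past the threshold and 0 at an unadjusted p under 0.05. Leaving out sham 2 gave a median of -0.0070, TAC 3 gave -0.03 and TAC 1 gave -0.06, while TAC 2 gave -0.21 and sham 1 gave -0.34 (each 0 higher, 7 lower). Kif13b, a motor of the same family, differed by -0.42 ± 0.38, and Madd, which links Kif1b to vesicles, by -0.30 ± 0.33. Dhx9, an RNA helicase that is a reported partner of the human KIF1B protein in cell death, differed by -0.17 ± 0.30. Kif1a, the neuronal motor closest to Kif1b, lay between 2.68 and 3.11 and was not tested.

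Further genes found mutated in pheochromocytoma or paraganglioma gave a like picture. Of 13 tested, 9 had a higher and 4 a lower mean after TAC (median 0.11). Over all genes tested, 58.7% had the higher mean, 7.29% an unadjusted p under 0.05 and 14.2% groups without overlap. In this list 0 passed the threshold and 1 had an unadjusted p under 0.05. That gene was Dnmt3a, a DNA methyltransferase, which measured 8.52, 8.43 and 8.58 after TAC and 7.47, 7.96 and 7.51 after sham without overlap (difference 0.86 ± 0.24, adjusted p = 0.520), while its second probe set read -0.37 ± 0.29. Leaving out TAC 2 gave a median of 0.0023, sham 1 gave -0.09, and each of the other arrays gave 0.19 to 0.25. Some of these genes, such as Egln2, Got2 and Slc25a11, also stand in the lists above.

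**Figure D4:**
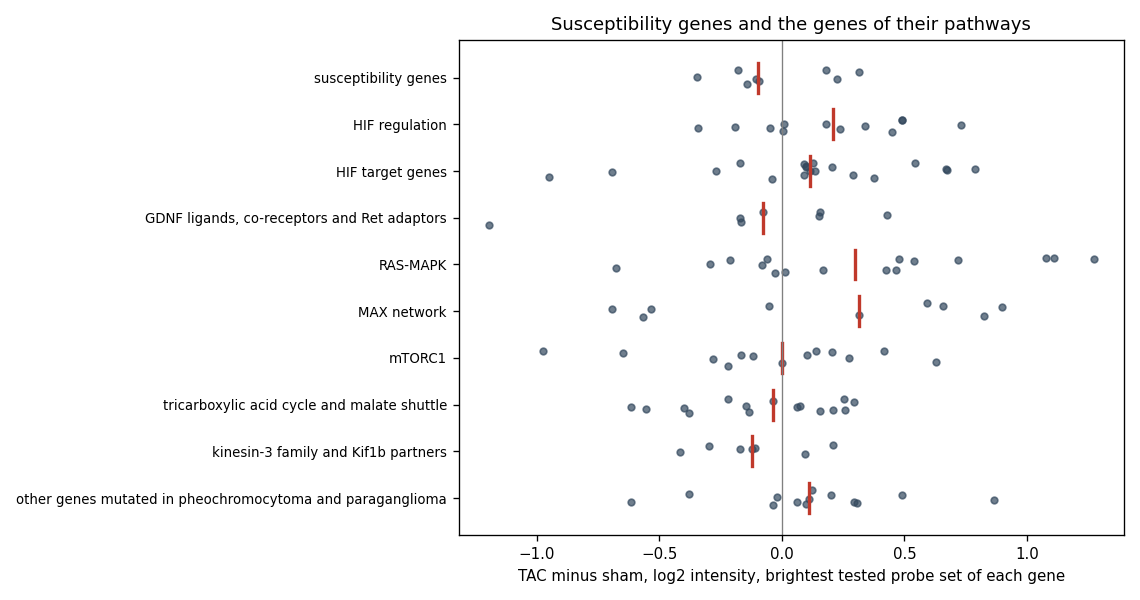
Difference of TAC minus sham in log2 intensity (horizontal axis) for the brightest tested probe set of each gene, 1 dot per gene, for the 8 tested susceptibility genes and 9 lists of pathway genes, with the median as a red bar. The medians lie between -0.12 for the kinesin list and 0.32 for the Max network.

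Profiles most like those of Ret and Epas1 over the 6 arrays were sought by the root mean square difference after centring each profile on its own mean. For Ret these were Chit1 (0.10), Epha7 (0.12) and Ift88 (0.13), all lowest in TAC 3 as Ret was. For Epas1 they were Smcr8 (0.05), Zbtb38 (0.08) and Hmgn5 (0.09), all lowest in TAC 1 and highest in TAC 2. Clone names, predicted genes and RIKEN names were passed over. The median over the genes compared was 0.60 against Ret and 0.51 against Epas1. Since the closest were picked out of those left of the 10181 genes tested, over 6 arrays, the values are descriptions only.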

How the data were processed

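RNA from adrenal medulla of 3 mice after TAC and 3 after sham underwent 2 rounds of amplification starting at the 3′ end and was measured on Affymetrix mouse genome arrays, per the labels' protocols. The deposited table holds background-corrected intensity values on a linear scale, made with GCRMA per the submitters' processing notes; the tool's version and settings were not among the sources used here. The 6 columns do not share 1 distribution. Values were log2 transformed without further scaling.

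GEO's platform annotation gave 1 symbol for 34945 probe sets, several for 932 and none for 9160, with 64 controls left out; 34741 Entrez identifiers matched a RefSeq table of GRCm38.p6. Only probe sets reaching log2 4 on 3 or more arrays were tested, with limma 3.58.1 in R 4.3.3 (lmFit, eBayes, 2-sided, no covariate), with Benjamini-Hochberg adjustment over all 18188 and a threshold of 0.05. SE and 95% intervals come from that fit. The code was tested on simulated data. All member probe sets are named, with, from each pathway list, the 2 genes of smallest p and fixed others; the members and lists were chosen with earlier results of these data known. Replicate numbers were taken not to pair the arrays. No batch is given in the labels.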

Additional observations from a re-analysis of the deposited data

How the results depend on the processing

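Over 16 alternatives 0 probe sets passed the threshold, and no member did; the lowest adjusted p of a member was 0.0759, for Kif1b 1425270_at (-1.85) with the Gapdh 3′ minus 5′ difference as a covariate. Kif1b 1451200_at stayed between -1.05 and -0.77 (adjusted p from 0.135 to 0.9999), a direction that non-overlapping groups fix when arrays are left out. Ret also kept its sign in 16 alternatives, and 3 other Kif1b probe sets did in the 15 that tested them. Counts of member probe sets at an unadjusted p under 0.05 were 0 to 1 leaving out 1 array (0 without sham 2), 5 with the Gapdh covariate, and 0 without TAC 1 and sham 1 together, a setting chosen after seeing the data. With the replicate number as a block the count was 3, and over all probe sets 3005 in place of 1263, with no call changed. The numbers were not taken as pairs. Deviations of same-numbered arrays from their group means correlated at 0.76, 0.78 and -0.22 for numbers 1, 2 and 3. Not every array correlated best with its own number. Deviations within a group cancel out, so these correlations depend on one another and cannot settle whether arrays were paired. The count over all probe sets was 3843 with the covariate, 2507 without TAC 1 and sham 1, 2429 without sham 1, 641 without sham 2, 773 without sham 3, 695 without TAC 3 and 2110 with no filter. The member median ran from -0.36 to 0.34 leaving out 1 array, and was 0.21 with the covariate. Signs turned for Mdh2 1416478_a_at after cyclic loess (-0.00064), for Vhl (0.17), Epas1 (0.11) and Kif1b 1423994_at (0.24) with the covariate, and for Tmem127 (0.16) and Epas1 (0.088) without TAC 1 and sham 1. Leaving out 1 array, Vhl ran from -0.78 to 0.36, Tmem127 from -0.32 to 0.21, Fh1 from -0.038 to 0.43, Epas1 from -0.40 to 0.32, Egln1 from -0.28 to 0.54, Mdh2 from -0.0083 to 0.64 and from -0.37 to 0.49, and Kif1b 1423994_at from -0.64 to 0.29. The cause of these changes was not tested.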
